A study of Homo sapiens with 24 samples.

Results

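The arrays compared here measured what depleting SUZ12 did to basal gene expression in SW-13 cells that had seen no cytokine. The SW-13 line, from a human adrenocortical carcinoma, lacks BRG1, the main ATPase of the SWI/SNF chromatin remodelling complex. The comparison was chosen by the sample labels alone and took 6 of the 24 arrays, 3 from siSUZ12 cells and 3 from siCtrl cells, all without siBRM and without IFNγ. Cells of both groups received 50 nM siRNA in 2 rounds of transfection, so the controls carried a control siRNA and were not untransfected cells. Other arrays of the series served for comparison. They came from cells with siSUZ12 or siCtrl and 6 h of IFNγ, and from untreated or IFNγ-treated cells that also received 75 nM siBRM. This siRNA is against BRM, the BRG1-related ATPase of SWI/SNF. The siBRM cells thus received 125 nM siRNA in total, with no group at that dose without siBRM. Each of the 8 groups had 3 arrays, described by the study as biological replicates.

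SUZ12 is a core subunit of Polycomb Repressive Complex 2 (PRC2), which trimethylates lysine 27 of histone H3 through its catalytic subunit EZH2. The mark is found at promoters of many developmental and tissue-specific genes that are kept at low expression, and cells without SUZ12 lose EZH2 and the mark. SWI/SNF remodels nucleosomes and in several settings works against PRC2. The study reports that depleting PRC2 in SW-13 cells raised BRM marginally.

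The arrays were Illumina HT-12 BeadChips, on which the brightness of a probe measures its mRNA. The deposited table identifies its 47231 probes by probe ID, and 0 of these IDs were found in the gene tables used here. The results are therefore about probes, the level of SUZ12 in the siSUZ12 cells could not be read as a check of the labels, and the adrenal identity of the cells could not be checked against marker genes. Groups of genes by function were not analysed here for the same reason. A gene with several probes counts more than once.

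The mean signal of the 6 arrays ran from 552 to 635, within the 532 to 635 of all 24. Scaling gave every array the same mean signal, and its log2 was then taken. No background was subtracted here, so folds at dim probes, whose signal is mostly background, are understated. A detection p-value below 0.01 counted as detected, and the dimmest detected probe of an array had a scaled signal of 130 to 139. The siCtrl arrays detected 15394, 15738 and 15274 probes, and the siSUZ12 arrays 15730, 16327 and 16799. The groups overlapped, since 1 siCtrl array lay above 1 siSUZ12 array. Log2 signals correlated at 0.9946 to 0.9954 between arrays of 1 group and at 0.9851 to 0.9861 between the groups. The median SD of a probe over 3 arrays was 0.0923 (log2) in siCtrl and 0.0917 in siSUZ12 cells. The median probe changed by 0.03 on the log2 scale.

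Over all probes, more rose than fell after siSUZ12, and the imbalance grew with the size of the change. Dim probes had little room to fall, and the part this had in the imbalance was not tested. At a threshold of ≥ 2-fold with an adjusted p-value below 0.05 (limma, Benjamini-Hochberg over all probes), 213 probes rose, which was 0.451% of those tested, and 94 fell, which was 0.199%. Together they made 307 probes or 0.650%. At ≥ 1.5-fold, 847 rose and 542 fell. At ≥ 3-fold, 67 rose and 11 fell, and at ≥ 4-fold, 24 rose and 2 fell. Only rises reached 8-fold, at 3 probes. The share of rises among called probes went from 61.0% at 1.5-fold to 69.4% at 2-fold, 85.9% at 3-fold and 92.3% at 4-fold. With background correction by neqc, an alternative that lengthens the folds of dim probes, 93 probes rose and 12 fell ≥ 4-fold, and 29 rose and 0 fell ≥ 8-fold. All 213 raised probes had their 3 siSUZ12 arrays above their 3 siCtrl arrays, and all 94 lowered probes had them below. These same arrays chose the probes, so the lack of overlap only describes them. Over all probes, 15.7% had siSUZ12 arrays that were all higher and 10.3% had siSUZ12 arrays that were all lower.

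**Figure D1:**
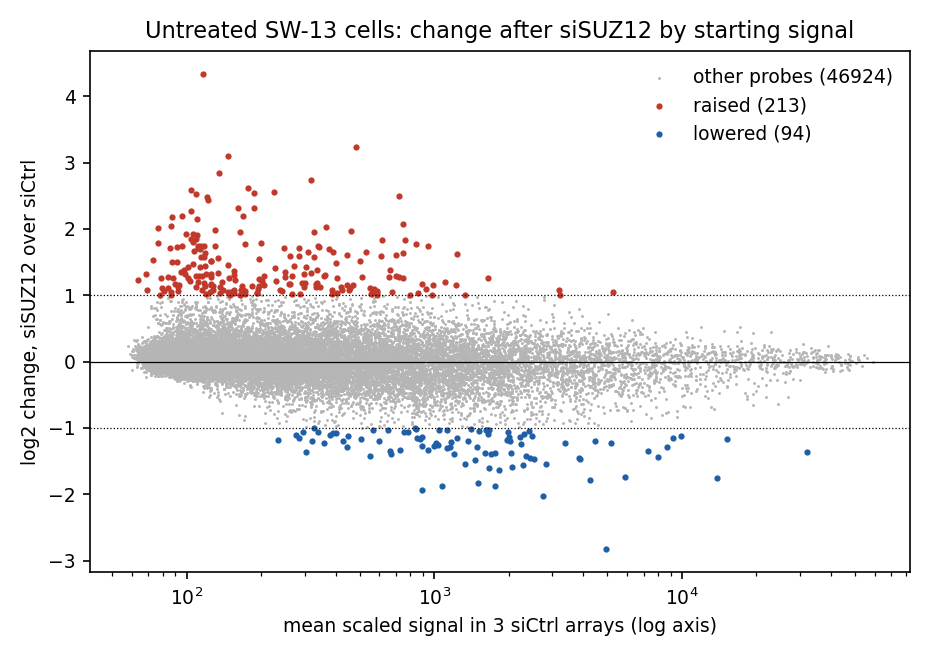
Each point is 1 of 47231 probes, with its mean scaled signal in the 3 untreated siCtrl arrays on the x axis (log axis) and its log2 change after siSUZ12 on the y axis. Raised probes (213) spread mostly over lower signals, at a median of 172, while lowered probes (94) sit further to the right, at a median of 1434, and dotted lines mark a 2-fold change.

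Most changes that passed the test were small. On the adjusted p-value alone, 3853 probes rose (8.16%) and 2752 fell (5.83%), together 14.0% of the array. The median rise among the 3853 was 1.31-fold, and 3006 of them (78.0%) rose by less than 1.5-fold. The median fall among the 2752 was 1.32-fold, and 2210 (80.3%) fell by less than 1.5-fold. The direction of this broad set depended on scaling, with 58.3% of its probes raised after scaling to the array mean and 51.1% after quantile normalization. The ≥ 2-fold set had 69.4% raised after scaling and 67.1% after quantile normalization.

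Raised and lowered probes differed in their level before SUZ12 was depleted. The 213 raised probes had a median scaled signal of 172 in siCtrl cells (quartiles 114 and 385) and of 516 in siSUZ12 cells. The 94 lowered probes started at a median of 1434 (quartiles 764 and 2303) and reached 549. The sets were thus far apart in siCtrl cells and at about the same median level in siSUZ12 cells. The median change was 2.44-fold for the raised probes, and the largest log2 change was 4.33. It was 2.34-fold for the lowered probes, and the largest fall was -2.82. The starting level enters the change itself and the choice of the probes, so these levels are a description.

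Some raised probes were undetected on every siCtrl array, though a smaller share of undetected than of detected probes rose ≥ 2-fold. Of the 30520 probes undetected in all 3 siCtrl arrays, 77 rose ≥ 2-fold (0.252%, against 0.451% of all probes) and 0 fell. On the adjusted p-value alone in limma, 907 of them rose and 56 fell. The largest fall among them was 0.54 on the log2 scale. Their signal was mostly background and had little room to fall, so the 0 says nothing about falls of their mRNA. Of the 14395 probes detected in all 3 siCtrl arrays, 127 rose ≥ 2-fold (0.882%) and 94 fell (0.653%). The remaining 9 raised probes came from the 2316 detected in 1 or 2 siCtrl arrays, of which 0 fell ≥ 2-fold and 47 fell on the adjusted p-value alone. The raised probes that were undetected in siCtrl cells rose by a median of 1.43 (log2) and those detected in all of them by 1.25, and with neqc these same probes rose by 2.55 and 1.58. With neqc, 240 of the undetected probes rose ≥ 2-fold and 0 fell, against 257 that rose and 251 that fell among the detected ones. There too, undetected probes had little room to fall. On the adjusted p-value alone in limma, 2729 of the detected probes rose and 2649 fell after scaling to the array mean. These counts were 2601 and 3130 after quantile normalization, and 2657 and 3175 with neqc, so their direction depended on scaling.

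Calls were also counted over the range of signal, where the dimmest probes likewise had little room to fall. Probes were ordered by their mean over all 24 arrays and divided into 10 bins of equal size, from dimmest to brightest. The dimmest 6 bins, at median signals from 78.8 to 112, held 9 of the raised and 0 of the lowered probes. Bin 7, at a median of 127, held 15 and 0. Bin 8, at a median of 195, held 79 raised and 11 lowered probes. Bin 9 held 70 and 37, and bin 10, at a median of 1780, held 40 raised and 46 lowered. In the brightest bin, therefore, falls were at least as many as rises after scaling to the array mean and after quantile normalization (44 raised, 45 lowered), though not with neqc (56 raised, 51 lowered). On the adjusted p-value alone, bin 8 had 944 rises and 519 falls after scaling, but 754 and 800 after quantile normalization, and bin 9 had 1076 and 951 against 1017 and 1127. The median residual SD fell from 0.123 (log2) in bin 3 to 0.0819 in the brightest, so bright probes passed the test at smaller changes.

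**Figure D2:**
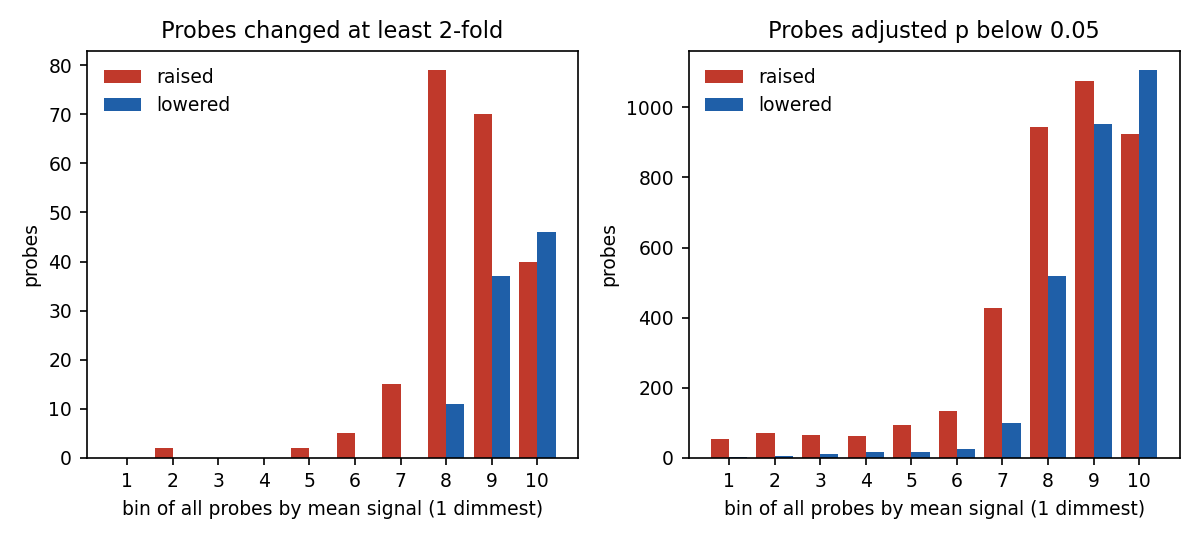
Bars count probes raised (red) and lowered (blue) after siSUZ12 in untreated cells, for 10 equal bins of all probes ordered by mean signal from dimmest (1) to brightest (10). The left panel counts changes of ≥ 2-fold, where bin 8 holds 79 rises and 11 falls and bin 10 holds 40 and 46, and the right panel counts all changes with an adjusted p-value below 0.05.

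Detection itself gave another view of probes that came on. Between siCtrl and siSUZ12 cells, 447 of 30520 probes went from undetected in 3 arrays to detected in 3. The other way went 76 of the 14395 probes detected in 3 siCtrl arrays. Most of these crossed the limit by little, with a median log2 change of 0.50 for the 447 and -0.33 for the 76. Of the 447, 384 had an adjusted p-value below 0.05 and 76 rose ≥ 2-fold. Of the 76, 50 passed the adjusted p-value and 4 fell ≥ 2-fold. The siSUZ12 arrays also detected more probes in total on 2 of 3 arrays, and the part this had in the counts was not tested. Among IFNγ-treated cells, 405 of 30330 undetected probes came on and 87 of 14445 detected probes went off. In siBRM cells, 300 of 30588 came on and 28 of 14383 went off. Of the 447, 225 (50.3%) made the same crossing with IFNγ, 166 (37.1%) in siBRM cells and 121 in both. Of the 76, 25 (32.9%) did so with IFNγ and 5 (6.58%) in siBRM cells.

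The largest rise was at probe ILMN_1764690, which came on from below the detection limit. Its scaled signal was 117.0, 117.3 and 114.7 in the siCtrl arrays and 2263, 2404 and 2350 in the siSUZ12 arrays. No siCtrl array detected the probe and all 3 siSUZ12 arrays did, with a gap between the groups far wider than the spread within either. The scaled signal was 20.1-fold higher (log2 change 4.33 ± 0.08, SE, limma adjusted p = 4.16e-29). As the siCtrl signal was not above background, this understates the rise of the mRNA, and with neqc the log2 change was 5.85.

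The next largest rise, at ILMN_1699772, began from a detected level. Its signal was 502, 505 and 440 in siCtrl cells and 4810, 4431 and 4334 in siSUZ12 cells. The lowest siSUZ12 array lay well above the highest siCtrl array. The mean went from 482 ± 36.7 to 4525 ± 251 (SD, n = 3 each), a 9.40-fold rise (log2 change 3.23 ± 0.09, SE, limma adjusted p = 4.81e-24).

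The largest fall was at ILMN_1797813, whose signal was 4667, 5264 and 4833 in siCtrl cells and 674, 705 and 710 in siSUZ12 cells. All siSUZ12 arrays still detected it. The mean went from 4921 ± 308 to 696 ± 19.5 (SD, n = 3 each), a 7.06-fold fall (log2 change -2.82 ± 0.07, SE, limma adjusted p = 1.93e-24).

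The fall at ILMN_1787815 was next, from 2672, 2908 and 2661 in siCtrl cells to 732, 627 and 666 in siSUZ12 cells. The groups did not overlap, which the rule for giving probes by ID asked of all 4. The mean went from 2747 ± 139 to 675 ± 53.2 (SD, n = 3 each), a 4.08-fold fall (log2 change -2.03 ± 0.09, SE, limma adjusted p = 4.78e-19). Beyond these 4 probes, the 10 largest rises had log2 changes down to 2.53 and the 10 largest falls went up to -1.63.

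**Figure D3:**
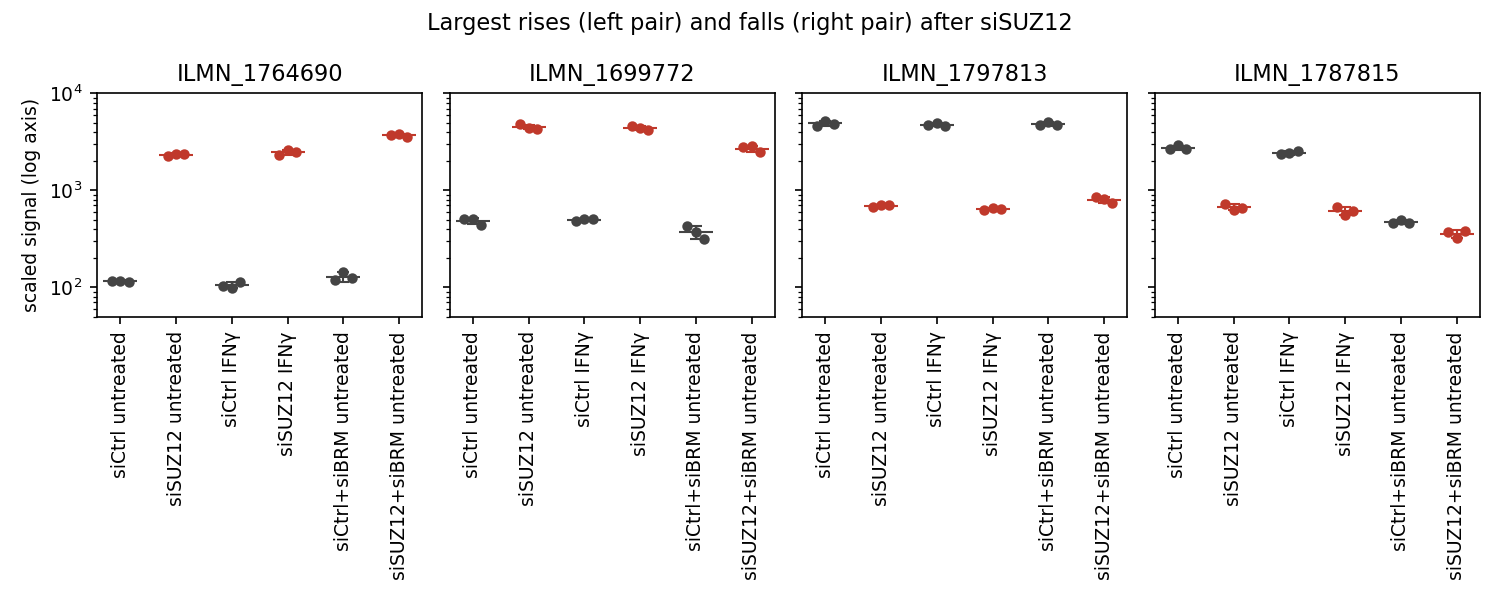
Points are the scaled signals (log axis) of single arrays, horizontal marks are means and error bars the SD over 3 arrays, for siCtrl (grey) and siSUZ12 (red) cells in 6 of the groups. ILMN_1764690 and ILMN_1699772 are high in every siSUZ12 array and ILMN_1797813 is low in every one, while ILMN_1787815 is already low in siCtrl cells that received siBRM.

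The called probes changed to a like extent in every pairing of single arrays. Over the 9 ways to set 1 siSUZ12 array against 1 siCtrl array, the median log2 change of the 213 raised probes ran from 1.26 to 1.34, and that of the 94 lowered probes from -1.29 to -1.18. Every one of the 213 and of the 94 kept its direction in each of the 9. Between 186 and 199 of the raised probes reached 2-fold in a single pair, and between 74 and 91 of the lowered ones. The raised probes took 0.264 to 0.268% of all signal on a siCtrl array and 0.715 to 0.727% on a siSUZ12 array. The lowered probes took 0.855 to 0.870% and then 0.333 to 0.344%. Since these arrays chose the probes, the values describe how alike the replicates were.

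Arrays from cells given IFNγ for 6 h asked whether the probes would move the same way in a separate set of siSUZ12 and siCtrl arrays. In this comparison 227 probes rose ≥ 2-fold (0.481% of all probes) and 95 fell (0.201%). On the adjusted p-value alone, 7.28% of all probes rose and 6.95% fell. All 213 probes raised in untreated cells rose with IFNγ, and 166 (77.9%) did so ≥ 2-fold, with a median log2 change of 1.31. All 94 lowered probes fell with IFNγ, 77 of them (81.9%) ≥ 2-fold, with a median of -1.24. The weakest of the 213 still rose by 0.26 on the log2 scale.

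The ≥ 2-fold lists with and without IFNγ overlapped in part. The 166 shared raised probes were 77.9% of the untreated list and 73.1% of the IFNγ list, and the 77 shared lowered probes were 81.9% and 81.1%. The 47 raised probes missing from the IFNγ list all rose there below 2-fold, with medians of 1.08 untreated and 0.91 with IFNγ. A test of the difference between the siSUZ12 effects passed at 2 of these 47 and at 33 of the 61 raised probes found with IFNγ alone, of which 44 rose in untreated cells on the adjusted p-value alone. It passed at 0 of the 17 lowered probes missing from the IFNγ list, all of which fell there, and at 1 of the 18 found with IFNγ alone. Over all probes it passed at 0.199%. The test uses the same arrays that sorted probes into these lists, which favours a difference at probes of 1 list alone. These counts therefore only describe the lists.

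Over the whole array, the siSUZ12 effect differed between IFNγ-treated and untreated cells at 94 probes, which was 0.199% of those tested (limma interaction, adjusted p below 0.05). It was more positive with IFNγ at 86 of them (0.182%) and more negative at 8 (0.0169%). Of the 94, 9 were among the 307 probes changed ≥ 2-fold in untreated cells, at 3.76% of the raised and 1.06% of the lowered probes. Among the 213 raised probes the effect was higher with IFNγ at 5 and lower at 3, and among the 94 lowered probes it was higher at 1 and lower at 0 (46 higher and 48 lower before any test, with 6 and 3 at an unadjusted p below 0.05 in limma). The median difference was -0.06 for the raised and -0.00 for the lowered probes.

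**Figure D4:**
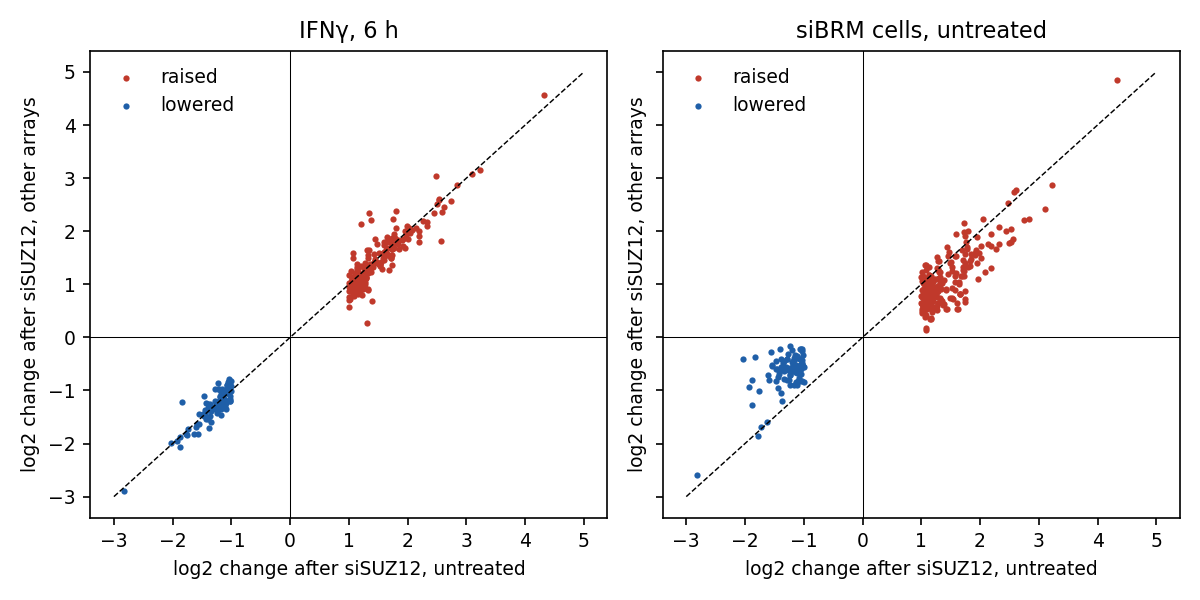
Points are the 213 raised (red) and 94 lowered (blue) probes, with the log2 change after siSUZ12 in untreated cells on the x axis and the log2 change after siSUZ12 in IFNγ-treated cells (left) or in untreated siBRM cells (right) on the y axis. The dashed line marks equal changes, along which the points lie with IFNγ, while in siBRM cells the lowered probes sit nearer to 0, at a median of -0.58 against -1.23.

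In untreated cells that also received siBRM, the siSUZ12 effect was smaller, and far more so for falls than for rises. There, 114 probes rose ≥ 2-fold (0.241% of all probes) and 8 fell (0.0169%), and 5.04% rose and 2.98% fell on the adjusted p-value alone. Of the 213 raised probes, all were higher in siSUZ12+siBRM than in siCtrl+siBRM cells, 211 past the adjusted p-value and 107 (50.2%) ≥ 2-fold, with a median log2 change of 1.01. Of the 94 lowered probes, all were lower and 87 passed the test, but 8 (8.51%) fell ≥ 2-fold and the median was -0.58. These 8 were all the probes lowered ≥ 2-fold in siBRM cells, and the 107 were 93.9% of those raised. Because siBRM cells also had a higher total siRNA dose, siBRM and dose cannot be told apart.

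The difference between the effects was tested for each probe. Over all probes it passed at 590 (1.25%), with the effect more positive in siBRM cells at 313 (0.663%) and more negative at 277 (0.586%). The siSUZ12 effect was smaller in size with siBRM at 538 of the 590 and larger at 52, and at 159 of the 590 the effects had opposite signs. Among the 213 raised probes, the rise was weaker with siBRM at 75 (35.2%) and stronger at 1, with a median difference of -0.36 (log2). Among the 94 lowered probes, the fall was weaker at 78 (83.0%) and stronger at 0, with 93 of 94 changing less and a median difference of 0.65. At an unadjusted p below 0.05 in limma the fall was likewise stronger at 0 and weaker at 86. With only 2 arrays per group, when each replicate number was left out in turn, between 31 and 40 of the raised probes and 42 and 50 of the lowered probes passed.

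Probes chosen for a large change on some arrays tend to change less on others, so the same difference was read at probes chosen on the IFNγ arrays, which it does not use. At the 95 probes lowered ≥ 2-fold with IFNγ, the median siSUZ12 effect was -1.19 in untreated cells and -0.59 in siBRM cells, and the difference passed at 73 (76.8%), all weaker. At the 227 probes raised ≥ 2-fold with IFNγ, the medians were 1.26 and 0.89, and the rise was weaker at 69 (30.4%) and stronger at 1.

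The raised probes were also counted by their detection in siCtrl cells. Of the 77 undetected in siCtrl cells, 54 (70.1%) also rose ≥ 2-fold in siBRM cells, at a median of 1.16, and the difference passed as a weaker rise at 16 (20.8%). Of the 127 detected in all siCtrl arrays, 48 (37.8%) rose ≥ 2-fold in siBRM cells, at a median of 0.81, and the difference passed as a weaker rise at 56 (44.1%). Whether these classes differ was not tested. Folds of the undetected probes are compressed by background and noise is lower at brighter probes, so the losses of the classes are not on 1 scale.

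Median levels per array described this difference from both sides. The median scaled signal of the 94 lowered probes was 1369 to 1485 over the siCtrl arrays and 539 to 552 over the siSUZ12 arrays. With siBRM it was 862 to 910 in siCtrl cells and 561 to 586 in siSUZ12 cells. Thus the siCtrl level was much lower with siBRM, while the siSUZ12 level was slightly higher with it. For the 127 raised probes detected in siCtrl cells, the siCtrl level was 322 to 344 without siBRM and 385 to 398 with it, and the siSUZ12 level 874 to 920 and 823 to 864. For the 77 raised probes undetected in siCtrl cells, the siCtrl level was 101 to 110 without siBRM and 104 to 111 with it, and the siSUZ12 level 282 to 288 and 245 to 251. The untreated arrays without siBRM chose the probes, so the levels with IFNγ, on arrays that did not, are set beside these. With IFNγ, the lowered probes were at 1312 to 1394 in siCtrl and 907 to 962 in siCtrl+siBRM cells, and at 540 to 561 in siSUZ12 and 599 to 624 in siSUZ12+siBRM cells. The detected raised probes were at 317 to 332 in siCtrl and 373 to 374 in siCtrl+siBRM cells, and the siSUZ12 arrays overlapped, at 839 to 878 without siBRM and 816 to 865 with it. The undetected raised probes overlapped in siCtrl cells, at 104 to 107 and 102 to 109, and did not in siSUZ12 cells, at 272 to 287 without siBRM and 232 to 237 with it.

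**Figure D5:**
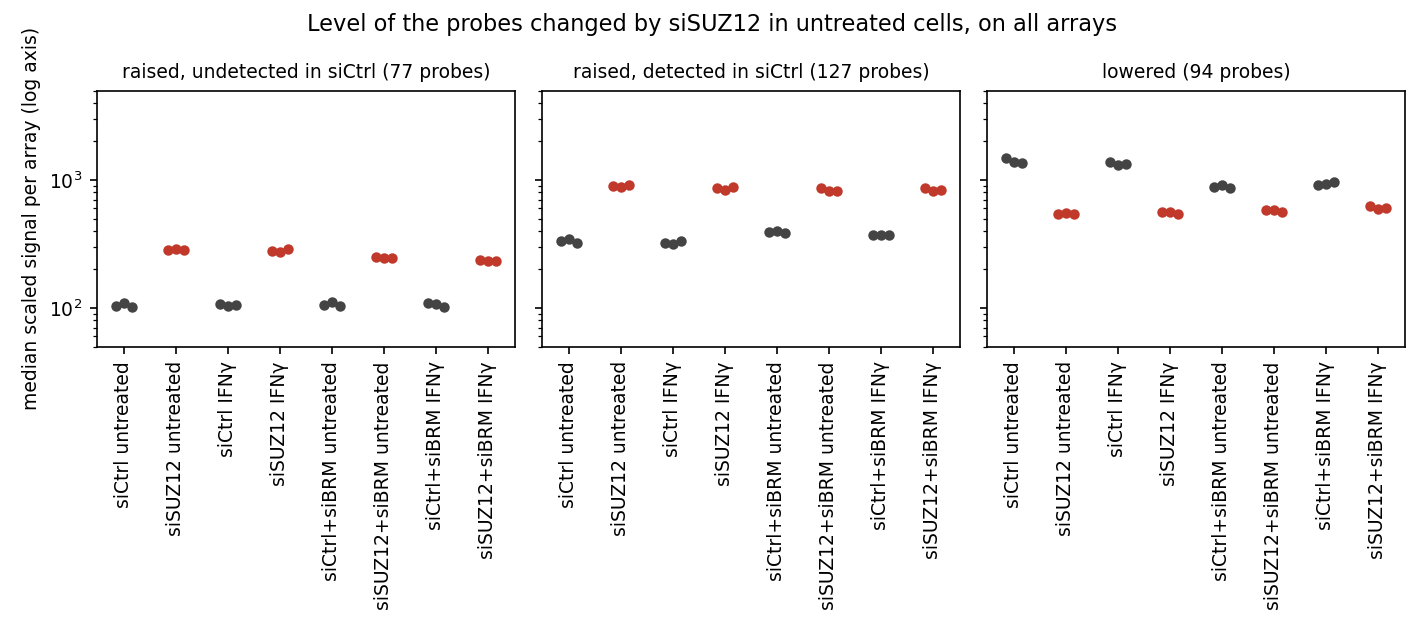
Each point is the median scaled signal (log axis) of a probe set on 1 array, for the 3 arrays of each of the 8 groups, with siCtrl groups in grey and siSUZ12 groups in red. The lowered probes drop from 1369 to 1485 in untreated siCtrl cells to 862 to 910 when siBRM is added, and the siSUZ12 groups all sit between 539 and 624.

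The response of these probes to siBRM was tested on arrays that had no part in choosing them, siCtrl+siBRM against siCtrl cells, both with IFNγ. Over all probes, 1.41% rose and 1.72% fell with siBRM on the adjusted p-value alone, and 0.0191% rose and 0.0550% fell ≥ 2-fold. Of the 94 probes that siSUZ12 lowered, siBRM lowered 53 (56.4%) and raised 2, and 17 (18.1%) fell ≥ 2-fold, with a median log2 change of -0.33. Of all 14395 probes detected in siCtrl cells, 5.43% fell and 4.18% rose. Many of these are dimmer than the 94, and bright probes pass the test at smaller changes. They are therefore not a background matched in brightness. Of the 213 probes that siSUZ12 raised, siBRM raised 55 (25.8%) and lowered 9 (4.23%), and 8 rose ≥ 2-fold, with a median of 0.09. Of the 127 detected in siCtrl cells, siBRM raised 47, and of the 77 undetected it raised 4 (5.19%), where 0.111% of all probes undetected in siCtrl cells rose. In siCtrl cells with siBRM, 53 of the lowered and 55 of the raised probes thus moved in the direction in which siSUZ12 moved them. At 39 lowered and 149 raised probes the siBRM response did not pass. These cells also had a higher total siRNA dose, so here too siBRM and dose cannot be told apart. The counts were 53 to 55 lowered and 55 to 62 raised under the 3 scalings, and 38 to 44 and 36 to 45 when each replicate number was left out in turn.

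The weakening of the siSUZ12 effect was also counted by whether siBRM itself moved the probe on the IFNγ arrays. Of the 53 lowered probes that siBRM lowered, the difference in siSUZ12 effect passed at 49 (92.5%), and of the 39 at which siBRM did not pass, at 29 (74.4%). Of the 55 raised probes that siBRM raised, it passed at 37 (67.3%), and of the 149 at which siBRM did not pass, at 39 (26.2%). Whether these shares differ was not tested. The siBRM effect in untreated siCtrl cells enters the difference itself, and the untreated arrays without siBRM chose the probes. The shares are therefore a description. The largest of the 590 differences was at ILMN_1787815. Its signal was 461, 499 and 459 in siCtrl+siBRM cells and 370, 322 and 381 in siSUZ12+siBRM cells, so its level with siBRM and siCtrl lay below its level with siSUZ12 and no siBRM. The siSUZ12 effect there was -0.41 (log2), and it differed from the effect without siBRM by 1.62 (95% interval 1.37 to 1.87, limma adjusted p = 2.67e-10). With IFNγ, siBRM lowered this probe 5.87-fold in siCtrl cells, from 2447 ± 110 to 417 ± 24.9 (SD, n = 3 each).

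The other named probes kept a large change. ILMN_1797813 was at 4855 ± 239 in siCtrl+siBRM cells and 806 ± 60.0 in siSUZ12+siBRM cells, a log2 change of -2.59, and its difference of 0.23 from the effect without siBRM did not pass (95% interval 0.01 to 0.44, limma adjusted p = 0.485). ILMN_1699772 rose by 2.87 (log2), from 372 ± 58.6 to 2697 ± 205, and its difference of -0.37 did not pass (95% interval -0.62 to -0.11, limma adjusted p = 0.208). ILMN_1764690 rose more with siBRM, to 3706 ± 150 from 129 ± 14.1, a log2 change of 4.85. It was the only one of the 213 raised probes with a stronger rise that passed (limma adjusted p = 0.0109). The size of that difference is not given here as a measure of the mRNA, because the probe was detected on 0 of 3 siCtrl and 1 of 3 siCtrl+siBRM arrays. With IFNγ, the effects at the 4 probes were 4.56, 3.15, -2.90 and -1.99, and the difference from untreated cells passed at none of them in limma (adjusted p from 0.907 to 0.995), the smallest unadjusted p being 0.0533.

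In siBRM cells, a minority of the probes changed by siSUZ12 also responded to IFNγ itself. These cells were used because their arrays did not choose the probes. They also had the higher siRNA dose, and the IFNγ response in cells without siBRM is not given here. In siCtrl+siBRM cells, IFNγ raised 0.987% of all probes and lowered 0.315% on the adjusted p-value alone, and raised 0.159% and lowered 0.00212% ≥ 2-fold. Of the 213 raised probes, it raised 5 (2.35%) and lowered 9 (4.23%), and 2 rose ≥ 2-fold. Of the 77 that had been undetected in siCtrl cells, it raised 0 and lowered 0, with 5 and 6 at an unadjusted p below 0.05 in limma. In siSUZ12+siBRM cells, IFNγ raised 1.44% of all probes, 0.296% ≥ 2-fold, and lowered 0.915%. There it raised 18 of the 213 (8.45%), 4 of them ≥ 2-fold, and lowered 32, of which 6 and 9 were among the 77. Of all probes detected in the untreated siCtrl arrays, IFNγ raised 2.58% and lowered 0.959% in siCtrl+siBRM cells, and raised 3.49% and lowered 2.68% in siSUZ12+siBRM cells. Of the 94 lowered probes, IFNγ raised 12 (12.8%) and lowered 1 in siCtrl+siBRM cells, and raised 9 (9.57%) and lowered 2 in siSUZ12+siBRM cells, with none at 2-fold and 21 and 17 raised at an unadjusted p below 0.05 in limma.

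The broad set of small changes recurred on the other arrays less fully. Of the 3853 probes raised in untreated cells, 2699 (70.0%) also rose with IFNγ and 0 fell, and 1785 (46.3%) rose and 4 fell in siBRM cells. Of the 2752 lowered probes, 2255 (81.9%) fell and 8 rose with IFNγ, and 1102 (40.0%) fell and 7 rose in siBRM cells. These shares stand against the 7.28% and 6.95% of all probes that rose and fell with IFNγ, and the 5.04% and 2.98% in siBRM cells.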

How the data were processed

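The authors hybridized biotinylated cRNA to Illumina Human-HT-12 BeadChips and processed the arrays in BeadStudio (version not given in the sources used here). The deposited table gives the intensity of every probe on every array without normalization, with a detection p-value, deposited beside each intensity, that sets it against the negative controls of the array. Whether background had been subtracted is not stated. The study names average normalization by BeadStudio without a formula.

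Samples were assigned from their titles. Signals of the 24 arrays were scaled so that each array had the same mean, that of all array means, values under a floor of 16 would have been raised to it (0 were), and the result was put on the log2 scale. The program limma 3.58.1 under R 4.3.3 (lmFit, eBayes) then estimated 1 mean for each group from all 24 arrays, leaving 16 residual and 17.2 prior degrees of freedom. Contrasts gave log2 changes, standard errors and p-values, adjusted by Benjamini-Hochberg over all 47231 probes. Differences between siSUZ12 effects were interaction contrasts. Probes were called at 2-fold with an adjusted p-value below 0.05, or on the adjusted p-value alone. Probe IDs are given for the 2 called probes that rose most and the 2 that fell most. They were chosen among probes whose siCtrl and siSUZ12 arrays did not overlap. The rule also asked for genes of 24 lists, which need gene names and were not analysed here. Sequences of the probes were not used here. The members, lists and rules were chosen with earlier results of these data known.

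The fit was tested on simulated data with 200 of 47231 probes changed in siSUZ12 against siCtrl untreated cells. Of changes of 1 (log2) it found 100%, beside 8 false calls, of 0.6 it found 93%, beside 6, and of 0.3 it found 2.5%, beside 0. In the data far more probes passed (14.0%), which loosens the adjusted limit, and rises from 0.205 (log2) were called. The simulated shares for small changes therefore do not carry over to the data. There are no read counts on an array, and precision is limited by having 3 arrays per group. An exact permutation of 3 against 3 arrays cannot go below p = 0.1, so the tests rest on the spread shared over arrays and probes. The siCtrl and siSUZ12 replicates are the study's biological replicates, while the labels give only a number. Alternatives were quantile normalization, neqc with an offset of 16, raising the floor to 64, restricting the fit to probes that 3 or more arrays detected or to the arrays concerned, the trend and robust options of eBayes, a replicate block, calls on fold alone or at 1.5-fold, and leaving out each array or replicate number. Plots used matplotlib 3.10.9 with Python 3.11.15.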

Additional observations from a re-analysis of the deposited data

Results flagged for a closer look

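Differences of the siSUZ12 effect between conditions passed their own test at 94 probes for IFNγ-treated against untreated cells and at 590 probes for siBRM cells against cells without siBRM, both untreated. Among the named probes, ILMN_1787815 differed with siBRM by 1.62 (log2, a weaker fall) and ILMN_1764690 by 0.52 (log2, a stronger rise, on scaled signals whose siCtrl level was at background). No group had more than 3 arrays, so single arrays were not tested as outlying.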

How the results depend on the processing

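In all 13 alternatives the 4 probes given by ID changed in the same direction and passed the test, with log2 changes of 4.31 to 5.85, 3.17 to 3.48, -2.95 to -2.77 and -2.15 to -1.98. The ≥ 2-fold counts moved by more than 1.5 times with neqc, to 546 raised and 259 lowered, and at 1.5-fold, to 847 and 542, by construction, since neqc lengthens the folds of dim probes and 1.5-fold is a looser limit. All 213 raised and 94 lowered probes were called with neqc, and 202 and 93 with quantile normalization. Leaving out 1 array gave 206 to 225 raised and 87 to 101 lowered probes, and 3126 to 3620 and 2274 to 2498 on the adjusted p-value alone. The probes whose siSUZ12 effect differed with siBRM numbered 917 with neqc, 1352 among probes detected in at least 3 arrays and 1092 with trend and robust settings, where the cause was not tested. Leaving out a replicate number, which leaves 2 arrays per group, gave 130 to 151 of these, and 41 to 50 for IFNγ. With a replicate block, 213 probes rose and 94 fell ≥ 2-fold, 4037 and 2867 passed the adjusted p-value alone, and 98 and 652 differed with IFNγ and siBRM. Deviations of same-numbered siSUZ12 and siCtrl arrays correlated at 0.0711, 0.0505 and 0.101, so the numbers were not taken to pair them. Even so, 6 of 6 arrays correlated best with their own number. Over all 8 groups, 16 of 24 arrays correlated best, on average, with arrays of their own number. The IFNγ and siBRM arrays carry the same numbers, and what same-numbered arrays share is not stated. Counts by detection, signal bin, siBRM response and IFNγ response under other scalings were chosen after seeing the data. Probe brightness near background limits what can be seen of falls at dim probes.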
